A study of Mus musculus with 16 samples.

Results

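The 31 genes described here encode the digestive machinery of the lysosome and were followed by gene symbol in a table of RNA-seq counts from mouse macrophages. They comprise 9 proteases (the cathepsins Ctsa, Ctsb, Ctsd, Ctsh, Ctsl, Ctss and Ctsz with Lgmn and Tpp1) and 9 enzymes that cut sugar chains or their sulfates (Hexa, Gaa, Gla, Glb1, Gusb, Neu1, Man2b1, Naglu and Sgsh). A further 7 act on lipids, transfer them or assist their hydrolases (Lipa, Asah1, Ppt1, Psap, Npc1, Npc2 and Grn), 5 are membrane proteins (Lamp1, Lamp2, Scarb2, Cln3 and Mcoln1) and 1 is a transcription factor, Tfeb. All 31 were among the 23159 symbols of the table, and all 31 were among the 12455 that passed the filter on low counts. The rule for the members used gene symbols and no measured value, but the list was drawn up with earlier results of these data known.

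The macrophages were recovered from mouse lungs by bronchoalveolar lavage, a wash of the airways. Toll-like receptor 3, an endosomal sensor of double-stranded RNA, is missing in the TLR3-KO mice and present in the WT mice. The groups were TLR3-KO injured, TLR3-KO control, WT injured and WT control, with 4 libraries each. The injured mice were sampled following pneumonia, after an inoculum of 500 CFU of Klebsiella pneumoniae (strain 43816, serotype 2) in 30 µl placed deep in the hypopharynx under isoflurane. The protocol names saline as its counterpart, whereas the treatment label of both control groups reads none. No source used here gave the age, the mouse strain, the design of the Tlr3 allele or the time after inoculation, or tied each library to its own mouse. The p-values therefore measure the spread between libraries, which may be technical.

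Total counts per library lay between 29667102 and 59640251. Tlr3 averaged 0.491 and 0.529 CPM (counts scaled to the library total) in TLR3-KO injured and control libraries, against 3.44 and 3.48 CPM in WT injured and control libraries. The title of the series speaks of male mice, yet Xist, the RNA of the inactive X chromosome, reached 42.3 CPM in TLR3-KO control 1, 31.6 CPM in control 2 and 20.3 CPM in control 3, and at most 0.230 CPM in any other library. Ddx3y, a gene of the Y chromosome, stood at 0.521 CPM in TLR3-KO control 1, 0.589 CPM in control 2 and 10.04 CPM in control 3, which held reads of both genes, and at 59.6 CPM or more in every other library. Eif2s3y, Kdm5d and Uty, also on the Y chromosome, stood at 0.358 CPM or less in TLR3-KO controls 1 and 2. TLR3-KO controls 1 and 2 thus carried the pattern of female cells and control 3 a mixed one, against a male pattern in the other libraries. In comparisons with the TLR3-KO controls, sex therefore cannot be told apart from genotype or pneumonia. Control 4 was also used as the only TLR3-KO control. The label macrophage was checked on 17 markers of alveolar macrophages, of which 14 were in the table. None of the 14 was at 0 in any group, and their summed level lay between 22143 and 30833 CPM in all libraries. Neutrophil markers, 12 of 13 in the table with Elane at 0 in every group, summed to 117 to 203 CPM in TLR3-KO injured, 63.8 to 98.5 CPM in TLR3-KO control, 82.7 to 290 CPM in WT injured and 47.5 to 84.7 CPM in WT control libraries. Of these markers, Mpo was also at 0 in both injured groups, and Camp in the WT injured and TLR3-KO control groups.

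Lysosomes are acid organelles in which macrophages degrade what they engulf, surfactant and bacteria included. Soluble hydrolases reach them mostly through mannose 6-phosphate receptors, work at low pH and are retained behind a membrane coated by heavily glycosylated proteins such as Lamp1 and Lamp2. Many lysosomal genes carry E-box motifs near their start, through which Tfeb and related factors of the MiT family can activate them together when they enter the nucleus. In the lung, alveolar macrophages are among the cells that clear and break down spent surfactant lipid.

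The E-box letters CACGTG, which read the same on both strands, were searched in promoter windows of RefSeq (GRCm38.p6) that run from 250 bases before to 50 bases after each gene's start. A window was used for 27 of the 31 members. Those of Asah1, Ctsb, Ctsh and Npc1 were not used here. The letters were present for 12 of the 27 members (44.4%: Cln3, Ctsa, Ctsd, Ctsl, Gaa, Gla, Glb1, Lamp1, Lgmn, Mcoln1, Naglu and Sgsh), for 11.9% of the 8933 tested genes with a window and in 7.15% of all 32851 windows. The longer form TCACGTG, or CACGTGA on the other strand, contains the first motif and was present for 11 of the 27 members (40.7%), against 7.02% of tested genes and 3.77% of all windows. A match in letters is a description of the sequence. The 250 bases before the start, 5′ to 3′ on the gene's strand with each CACGTG in capitals, are shown for 4 members to let the motifs be compared. They are Lamp1 (chr8:13158911-13159160, plus strand), a coat protein of the membrane whose window holds 4 copies, Ctsd (chr7:142387828-142388077, minus strand), the most abundant member, Mcoln1 (chr8:3500269-3500518, plus strand), a cation channel of the membrane, and Gaa (chr11:119267713-119267962, plus strand), the enzyme that cuts glycogen.
Lamp1: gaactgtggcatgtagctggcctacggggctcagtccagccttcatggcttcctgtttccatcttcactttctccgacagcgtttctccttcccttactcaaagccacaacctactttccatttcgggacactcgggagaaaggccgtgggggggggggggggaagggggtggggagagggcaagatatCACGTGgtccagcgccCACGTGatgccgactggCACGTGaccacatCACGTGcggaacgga
Ctsd: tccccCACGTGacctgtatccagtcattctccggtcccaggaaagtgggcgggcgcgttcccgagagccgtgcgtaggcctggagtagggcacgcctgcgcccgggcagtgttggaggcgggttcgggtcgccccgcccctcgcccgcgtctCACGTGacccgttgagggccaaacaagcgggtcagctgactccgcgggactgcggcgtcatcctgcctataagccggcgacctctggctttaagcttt
Mcoln1: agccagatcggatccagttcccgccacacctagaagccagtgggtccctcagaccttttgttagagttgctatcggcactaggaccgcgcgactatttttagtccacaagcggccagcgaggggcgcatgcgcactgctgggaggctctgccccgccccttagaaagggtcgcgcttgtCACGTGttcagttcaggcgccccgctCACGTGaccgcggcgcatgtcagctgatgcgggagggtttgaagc
Gaa: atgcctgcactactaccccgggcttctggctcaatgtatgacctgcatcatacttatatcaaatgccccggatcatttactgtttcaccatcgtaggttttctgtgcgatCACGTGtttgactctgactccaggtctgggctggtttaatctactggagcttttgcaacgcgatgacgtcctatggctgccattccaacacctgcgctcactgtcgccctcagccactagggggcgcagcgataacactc

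The level of each member was compared between genes as CPM per kilobase of exon. The order was led by Ctsd, an aspartic protease, at 6462 ± 202 in TLR3-KO injured, 6821 ± 800 in TLR3-KO control, 6131 ± 395 in WT injured and 6574 ± 800 in WT control libraries (CPM per kilobase, SD, n = 4 each). Ctsd took 32.8% to 40.0% of all member counts in a library. Averaged over the 16 libraries, Ctss, a cysteine protease used in antigen presentation, followed at 2025 CPM per kilobase, and then Psap, the precursor of the saposins that help sphingolipid hydrolases, at 1624. Ctsz stood at 1062, Ctsb at 828.6, Lamp1 at 732, Lipa at 711 and Grn, the precursor of granulins, at 520 CPM per kilobase. Lamp1 and Lipa were close together, and their group means changed places: Lamp1 was above Lipa in TLR3-KO injured (773 ± 22.3 and 630 ± 43.8) and below it in WT control libraries (704 ± 41.9 and 866 ± 113 CPM per kilobase, SD, n = 4 each). Hexa, which trims gangliosides, led the glycosidases at 308 CPM per kilobase. The middle of the order, from Ctsa at 363 to Ppt1, a thioesterase, at 92.9, held 12 members, among them Asah1 at 160 and Lamp2 at 103. From Mcoln1 at 65.1 down to Glb1, the acid beta-galactosidase, at 21.7, the order held 10 members, with Tfeb at 43.5.

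Sgsh, the heparan sulfate sulfamidase, stood far below the rest at 0.0761 CPM per kilobase. Its reads numbered 18 to 28 per library in TLR3-KO injured, 6 to 17 in TLR3-KO control, 8 to 18 in WT injured and 3 to 9 in WT control libraries. Its exons share 955 bases with Card14 on the opposite strand, and the strand setting of the counting was not given, so reads of the pair cannot be told apart. In all, exons of 9 members overlap an exon on the opposite strand (Ctsa, Ctsb, Ctsl, Ctsz, Sgsh, Ppt1, Npc1, Lamp1 and Cln3), and 3 overlap another gene on the same strand (Ctsd, Ctsl and Glb1), which makes their counts less certain.

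**Figure D1:**
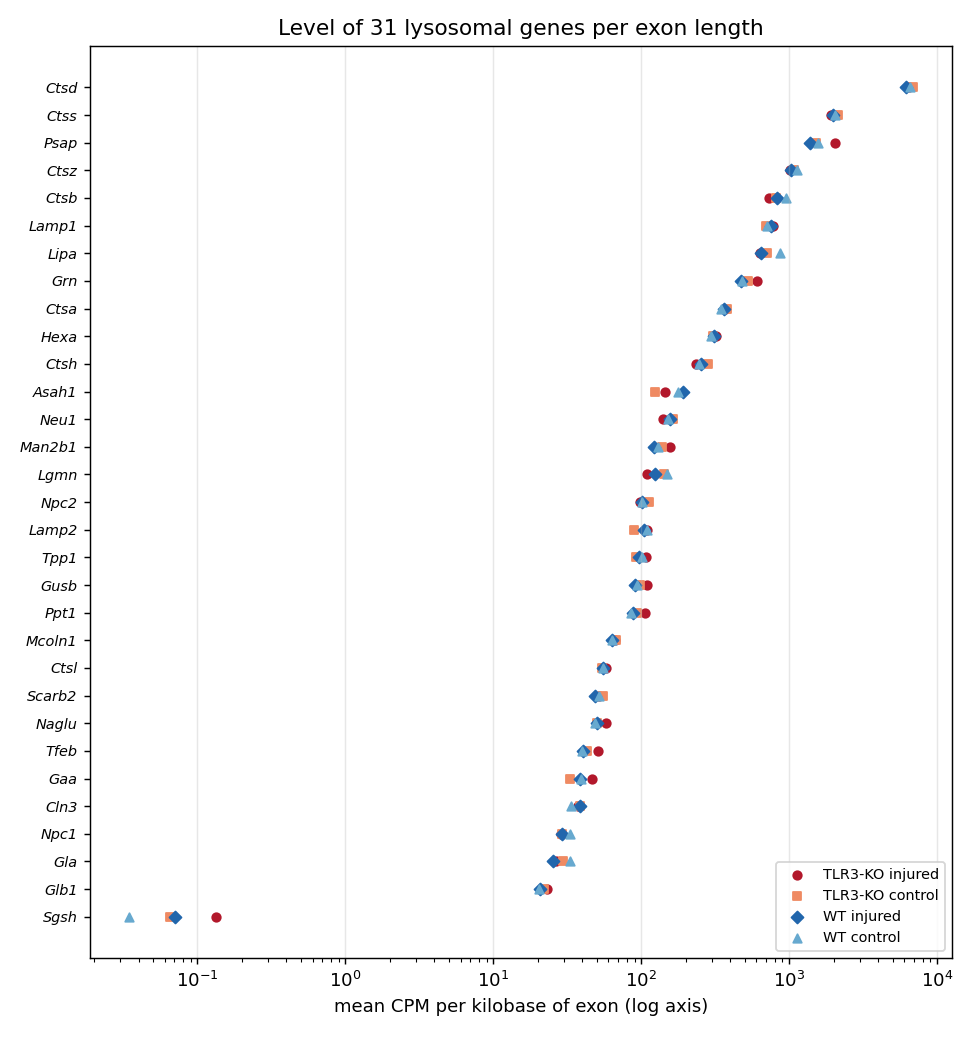
Mean level of the 31 genes in CPM per kilobase of exon on a log axis, ordered by the mean over 16 libraries, with 1 marker per group (n = 4 each). Ctsd leads at 6497 CPM per kilobase, Sgsh is lowest at 0.0761, and for most genes the 4 group means lie close together compared with the span between genes.

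The member with the lowest p between genotypes, in controls and in injured libraries, was Asah1, the acid ceramidase, which splits ceramide into sphingosine and a fatty acid. In TLR3-KO control libraries Asah1 was counted at 305, 396, 377 and 305 CPM, against 477, 484, 511 and 500 CPM in WT control libraries. All 4 TLR3-KO libraries lay below all 4 WT libraries. The ratio of TLR3-KO to WT was 0.666 (log2 fold change -0.59, SE 0.11, adjusted p = 0.0235, edgeR quasi-likelihood test with Benjamini-Hochberg adjustment over all genes tested). Asah1 was the only member called among the 31, beside 0.658% of all genes tested called in either direction and 0.409% called lower. Between the control genotypes, same-numbered libraries deviated together, which was not so between the injured genotypes. A fit of all 16 libraries blocked on that number gave a log2 fold change of -0.59 with an adjusted p of 0.0534 (edgeR), so the call was lost. It was also lost without WT control 1 (adjusted p = 0.0752), WT control 2 (0.0929) or TLR3-KO control 1 (0.0884). Kept as the sole control of its genotype because it lacks Xist, TLR3-KO control 4 gave a log2 fold change of -0.88 (adjusted p = 0.0503). Over 19 alternatives the log2 fold change lay between -0.88 and -0.50, the adjusted p between 8.23e-06 and 0.207, and 12 passed. At an unadjusted p under 0.05, 5 of 31 members passed, beside 19.8% of all genes tested. In lavage RNA, fewer cells of a type and less RNA per cell cannot be told apart.

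The injured libraries gave Asah1 values in the same order. Asah1 stood at 409, 417, 393 and 388 CPM in TLR3-KO injured libraries, against 512, 518, 503 and 586 CPM in WT injured libraries. The genotypes again did not overlap, but the difference missed the threshold (log2 fold change -0.43, SE 0.11, adjusted p = 0.0800, edgeR quasi-likelihood test). The adjusted p lay between 0.00448 and 0.256 over 16 alternatives, of which DESeq2 and a fit of these 2 groups alone passed. No member was called in this comparison by edgeR or limma voom, beside 0.602% of all genes tested by edgeR. DESeq2 called 1, Asah1, beside 3.57% of all genes to which it gave an adjusted p. At an unadjusted p under 0.05, 3 members were higher (Psap, Sgsh and Gusb), beside 8.25% of all genes tested, and Asah1 was lower, beside 7.8%.

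Asah1 (ENSMUSG00000031591.14) lies on the minus strand of chromosome 8 from 41340197 to 41374773 (mm10), 4.02 Mb from Tlr3 at 45395665 to 45411080. The other members on chromosome 8 are Lamp1 at 32.2 Mb, Man2b1, an alpha-mannosidase, at 39.7 Mb and Mcoln1 at 41.9 Mb from Tlr3. Their log2 fold changes, TLR3-KO over WT, were -0.09, 0.01 and 0.02 in controls and 0.00, 0.33 and 0.02 in injured libraries, with adjusted p-values of 0.355 and above (edgeR). Among lysosomal genes outside the 31, Hgsnat (chromosome 8 from 25944453 to 25976753, minus strand, 19.4 Mb from Tlr3), a membrane acetyltransferase of heparan sulfate breakdown, was lower in TLR3-KO in both states. Hgsnat stood at 55.3, 58.5, 58.3 and 58.3 CPM in TLR3-KO injured libraries, against 100, 137, 132 and 125 CPM in WT injured libraries. In control libraries it stood at 47.9, 50.0, 53.0 and 49.3 CPM in TLR3-KO, against 115, 116, 161 and 180 CPM in WT. In neither state did the genotypes overlap. The log2 fold change of Hgsnat was -1.13 (SE 0.12, adjusted p = 0.000111) in injured and -1.58 (SE 0.12, adjusted p = 1.95e-06) in control libraries by the edgeR quasi-likelihood test, and the calls held in 16 of 16 and 19 of 19 alternatives.

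Aga (chromosome 8 from 53511727 to 53523421, plus strand, 8.10 Mb from Tlr3), which frees asparagine from sugar chains, was lower in TLR3-KO injured libraries. It stood at 26.3, 26.7, 25.4 and 27.0 CPM in TLR3-KO injured libraries, against 41.1, 41.7, 36.6 and 34.8 CPM in WT injured libraries. The log2 fold change of Aga was -0.58 (SE 0.10, adjusted p = 0.0176, edgeR), and the call was lost without WT injured 2 (adjusted p = 0.0564) or without TLR3-KO injured 1, 2 or 3 (0.0661, 0.0542 and 0.0750). In controls its log2 fold change was -0.45 with an adjusted p of 0.05001, just above the threshold. Of the 128 lysosomal genes tested, members and further pathway genes together, 13 lie on chromosome 8. Calls in a genotype comparison numbered 4, of which 3 were on chromosome 8 (Asah1, Hgsnat and Aga). Over all genes tested with a position, 15 of 676 on chromosome 8 were called in controls (2.22%), beside 0.559% of those on other chromosomes, and 16 of 676 in injured libraries (2.37%), beside 0.490%. Within 10 Mb of Tlr3, 9 of 46 genes were called in injured libraries (19.6%), beside 0.522% of genes elsewhere, and 7 of 46 in controls (15.2%), beside 0.596%. Sequence carried along with the Tlr3 allele and absence of the receptor cannot be told apart in this design.

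**Figure D2:**
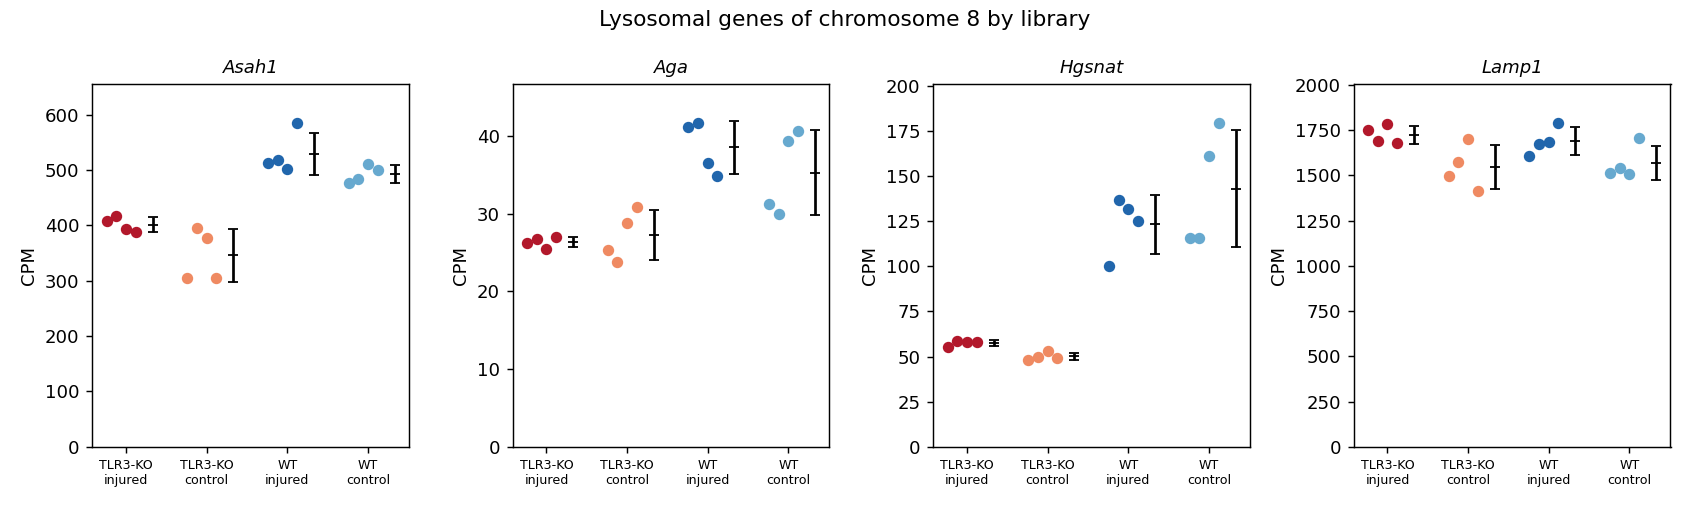
CPM of Asah1, Aga, Hgsnat and Lamp1 in each of the 16 libraries, grouped by genotype and state, with the mean and SD of 4 libraries beside the points. Every TLR3-KO library lies below every WT library of the same state for Asah1 and Hgsnat, while the genotypes overlap for Lamp1, at 1677 to 1782 CPM in TLR3-KO injured against 1607 to 1791 CPM in WT injured libraries.

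Among the remaining members, the lowest p-values between control genotypes belonged to Lamp2, a membrane glycoprotein needed for autophagy, and Ctsb, a cysteine protease. Lamp2 stood at 392, 495, 500 and 408 CPM in TLR3-KO control libraries, against 539, 565, 555 and 545 CPM in WT control libraries. The groups did not overlap (log2 fold change -0.37, SE 0.11, adjusted p = 0.0938, edgeR). Lamp2 lies on the X chromosome, and of these TLR3-KO controls only control 4, at 408 CPM, lacked Xist. The part of sex in the Lamp2 values was not tested. The adjusted p of Lamp2 was 0.0493 without TLR3-KO control 2. Ctsb stood at 3824, 3539, 4155 and 4001 CPM in TLR3-KO control libraries, against 4318, 4192, 4657 and 4807 CPM in WT control libraries, again without overlap (log2 fold change -0.29, SE 0.10, adjusted p = 0.138, edgeR). Asah1, Lamp2 and Ctsb were the 3 of 31 members whose control ranges did not overlap, beside 8.13% of all genes tested, and the 3 that DESeq2 called, beside 6.66% of all genes. Markers of monocytes and interstitial macrophages, 10 of 10 in the table with none at 0, summed to 23.7 to 40.2 CPM in TLR3-KO control and 12.9 to 23.1 CPM in WT control libraries. Their part in these differences was not tested.

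In injured libraries, Psap had the second lowest p between genotypes. Psap stood at 6165, 5950, 5700 and 4530 CPM in TLR3-KO injured libraries, against 2870, 3936, 3396 and 4959 CPM in WT injured libraries. The groups overlapped through TLR3-KO injured 4 and WT injured 4 (log2 fold change 0.53, SE 0.20, adjusted p = 0.232, edgeR). Members without overlap were Gusb, the beta-glucuronidase, Ppt1 and Sgsh, which were higher in TLR3-KO, and Asah1 and Lgmn, an asparaginyl endopeptidase that matures cathepsins, which were lower, 5 of 31 beside 12.3% of all genes tested. Gusb stood at 407, 413, 414 and 400 CPM in TLR3-KO injured libraries, against 360, 318, 317 and 371 CPM in WT injured libraries (log2 fold change 0.23, adjusted p = 0.251, edgeR). Sgsh stood at 0.659, 0.529, 0.607 and 0.533 CPM in TLR3-KO injured libraries, against 0.336, 0.221, 0.411 and 0.265 CPM in WT injured libraries (log2 fold change 0.88, SE 0.35, adjusted p = 0.243, edgeR), a difference of few reads. Epithelial markers, 11 of 11 in the table with none at 0, summed to 146 to 205 CPM in TLR3-KO injured and 88.1 to 119 CPM in WT injured libraries. Erythroid markers, 8 of 10 in the table with Hba-a1 at 0 in every group, summed to 73.8 to 199.5 CPM in TLR3-KO injured and 331 to 710 CPM in WT injured libraries. The part of either in these differences was not tested.

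The median log2 fold change of the 31 members, TLR3-KO over WT, was 0.04 in injured libraries (all genes tested -0.01), with 11 members negative beside 51.4% of all genes tested. It was -0.01 in controls (all genes tested 0.04), with 18 negative beside 45.3%. By raw library totals 10 members were negative in injured libraries, beside 45.8% of all genes tested, and 13 in controls, beside 37.5%, where that scaling moved the median of all genes to 0.10. These medians depended on single libraries. When TLR3-KO control 4 alone stood for its group the control median was -0.27 with 29 members negative (all genes tested 48.2%). Without that library the control median was 0.03 with 12 members negative (median of all genes tested 0.02). In injured libraries the median was -0.000733 without WT injured 3 and 0.07 without WT injured 4.

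The response to pneumonia was asked next in each genotype. In TLR3-KO macrophages no member passed in either direction by edgeR or limma voom, beside 1.09% of all genes tested by edgeR. DESeq2 called 1, Lgmn, beside 8.28% of all genes. At an unadjusted p under 0.05, 7 of 31 members passed (22.6%), 2 higher and 5 lower, beside 23.9% of all genes tested. By the fit and by raw library totals alike, 7 of 9 proteases (median log2 fold change -0.15 by the fit), 3 of 7 lipid genes and 3 of 5 membrane proteins had negative fold changes. Of the glycosidases and sulfatases 4 of 9 were negative by the fit and 2 by raw totals. Over all 31 the median was -0.0051, beside -0.013 for all genes tested, with 17 negative by the fit, beside 51.5% of all genes tested, and 15 by raw library totals, beside 42.6%. The median turned with the controls used: it was -0.13 with 21 members negative against controls 1 and 2 (all genes tested 47.6% negative), and 0.13 with 11 negative against control 4, the only one without Xist (48.8%).

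Lgmn had the lowest p of the members in TLR3-KO. It stood at 217, 217, 223 and 223 CPM in TLR3-KO injured libraries, against 219, 269, 342 and 318 CPM in TLR3-KO control libraries. The injured libraries were nearly equal and overlapped the controls through control 1 alone (log2 fold change -0.44, SE 0.12, adjusted p = 0.0716, edgeR, and 0.0422 without TLR3-KO control 2). Neu1, the lysosomal sialidase, stood at 343, 339, 332 and 370 CPM in TLR3-KO injured libraries, against 406, 401, 391 and 412 CPM in TLR3-KO control libraries. The ranges did not overlap, and the difference missed the threshold (log2 fold change -0.29, SE 0.10, adjusted p = 0.126, edgeR). Sgsh, at 0.308, 0.126, 0.358 and 0.345 CPM in TLR3-KO control libraries, was at 0.529 CPM or more in the injured ones (log2 fold change 0.97, SE 0.35, adjusted p = 0.128, edgeR). This too was a difference of few reads, 18 to 28 per injured library and 6 to 17 per control library. With Lamp2 and Gusb, both higher, Neu1 and Sgsh made up the 4 of 31 members without overlap, beside 14.3% of all genes tested. These ranges use raw library totals, and in the fit Gusb had a log2 fold change of 0.07 (adjusted p = 0.659, edgeR). The neutrophil markers did not overlap between TLR3-KO injured and control libraries (117 to 203 against 63.8 to 98.5 CPM), and their part in these values was not tested.

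In WT macrophages no member passed by edgeR or limma voom, beside 0.0% of all genes tested by edgeR. DESeq2 called 2, Lipa and Ctsb, beside 1.54% of all genes. At an unadjusted p under 0.05, 8 of 31 members passed, beside 10.7% of all genes tested, and 7 of them were lower, beside 4.44%. The remaining one, Sgsh, was higher and rested on 3 to 9 reads per library in WT control libraries. The fold changes of the members leaned to 1 side. By the fit, 29 of 31 were negative (all genes tested 48.7%), with a median log2 fold change of -0.12 (all genes tested 0.01), but by raw library totals 16 of 31 were negative (all genes tested 28.8%), with a median of -0.03 where all genes stood at 0.13. Negative by the fit were 9 of 9 proteases (median -0.17, 6 by raw totals), 8 of 9 glycosidases and sulfatases (-0.09, 4 by raw totals), 7 of 7 lipid genes (-0.12, 4 by raw totals) and 4 of 5 membrane proteins (-0.10, 2 by raw totals). Without WT injured 4 the median of the 31 was -0.22 with 29 negative (median of all genes tested 0.003). Without WT injured 3 it was -0.0752 with 27 negative (median of all genes tested 0.005). Against controls 3 and 4 alone 21 of 31 were negative (median -0.10, all genes tested 47.3% negative), and against controls 1 and 2 alone 27 (median -0.19, all genes tested 46.2% negative). The summed neutrophil markers overlapped narrowly (82.7 to 290 CPM in WT injured, 47.5 to 84.7 CPM in WT control libraries). Among them, Mpo and Camp were at 0 in the WT injured group but not in the WT control group. Erythroid markers (8 of 10 in the table, Hba-a1 at 0 in every group) did not overlap, at 331 to 710 against 11.4 to 151 CPM. The part of either list was not tested.

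Lipa, the acid lipase that frees cholesterol and fatty acids from lipid esters, had the lowest p of the members in WT. Lipa was counted at 1289, 2282, 1939 and 2083 CPM in WT injured libraries, against 2314, 2291, 2994 and 2690 CPM in WT control libraries. All injured libraries lay below all controls, with WT injured 2 only just below WT control 2 (log2 fold change -0.55, SE 0.15, adjusted p = 0.205, edgeR). In TLR3-KO, Lipa was counted at 1875, 1947, 1973 and 1685 CPM in injured libraries, against 1788, 1967, 2414 and 2230 CPM in control libraries, which overlapped. Ctsb was counted at 3284, 4444, 3981 and 3872 CPM in WT injured libraries, against 4318, 4192, 4657 and 4807 CPM in WT control libraries (adjusted p = 0.253, log2 fold change -0.32, SE 0.10, edgeR). WT injured 2 lay inside the control range. Lgmn was counted at 255, 250, 259 and 238 CPM in WT injured libraries, against 251, 243, 325 and 391 CPM in WT control libraries (adjusted p = 0.271, log2 fold change -0.37, SE 0.12, edgeR), with WT controls 1 and 2 among the injured values. Members without overlap in WT were Lipa, lower, and Sgsh, higher, 2 of 31 beside 4.51% of all genes tested. For Sgsh this was a difference of few reads, 8 to 18 per WT injured library and 3 to 9 per WT control library.

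**Figure D3:**
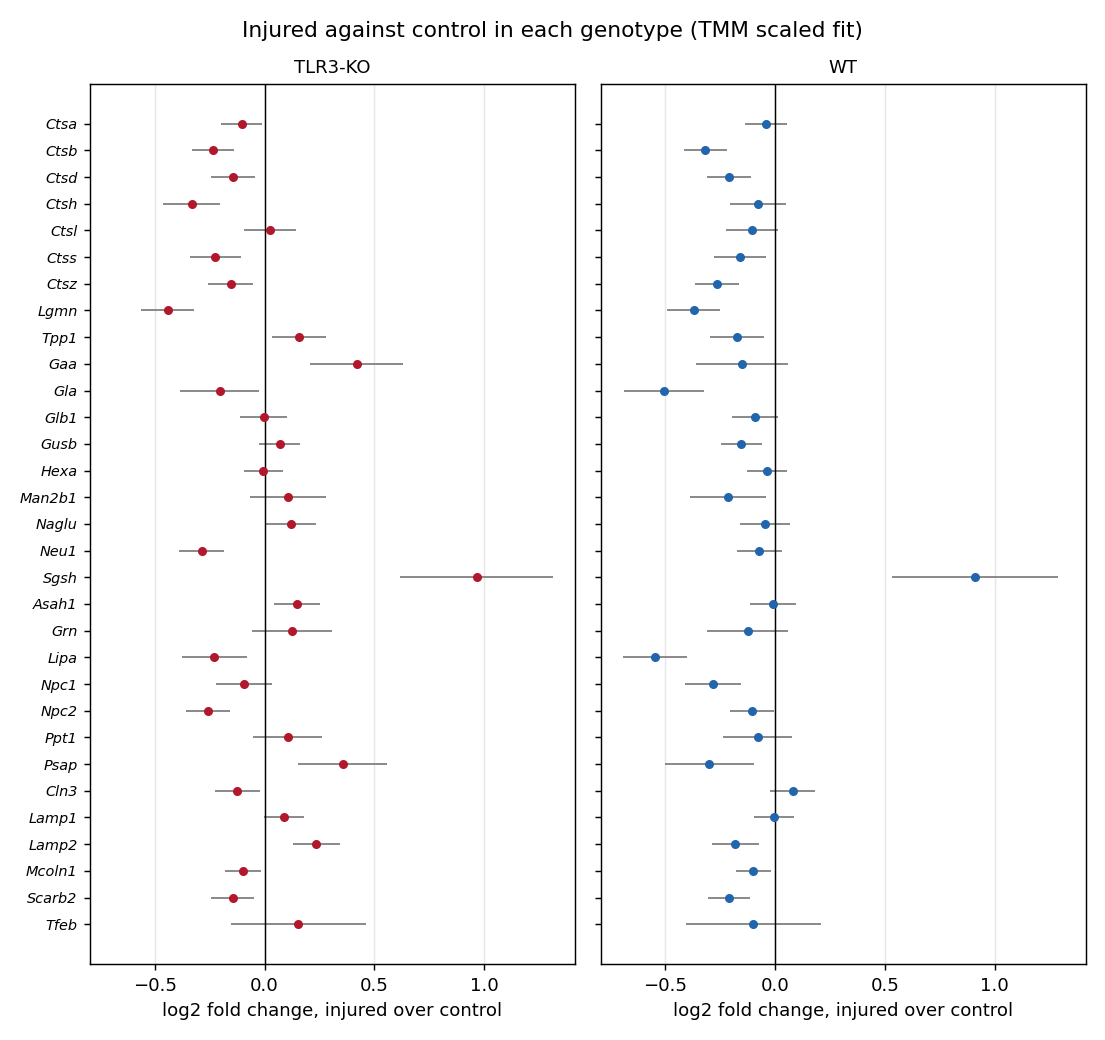
Log2 fold change of each member, injured over control, with its SE from the edgeR fit of 16 libraries, in TLR3-KO on the left and in WT on the right, ordered by role from proteases at the top to Tfeb. In WT 29 of 31 points lie left of 0 with TMM scaling (16 of 31 by raw library totals), and in TLR3-KO 17 of 31 do (15 by raw totals).

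The responses of the genotypes were compared directly as a difference of log2 fold changes, TLR3-KO minus WT. No member passed in either direction by edgeR, DESeq2 or limma voom, beside 0.0% of all genes tested by edgeR. At an unadjusted p under 0.05 the edgeR test passed 2 members, Lamp2 and Psap, beside 17.7% of all genes tested. The difference was negative for 7 of 31 members, beside 52.8% of all genes tested, and positive for 24, with a median of 0.11 (all genes tested -0.03). By raw totals 9 were negative, beside 55.4% of all genes tested, and 22 positive. With TLR3-KO control 4 as the only TLR3-KO control the median was 0.34, with 6 negative, beside 50.7% of all genes tested. In the fit of all 16 libraries the difference was 0.42 for Lamp2 (SE 0.15, adjusted p = 0.241) and 0.66 for Psap (SE 0.29, adjusted p = 0.261). For Tpp1, a tripeptidyl peptidase, it was 0.33 (SE 0.17, adjusted p = 0.311, all edgeR). Lamp2 stood at 572, 559, 557 and 526 CPM in TLR3-KO injured libraries, beside 392 to 500 CPM in TLR3-KO control libraries. In WT it was counted at 462, 532, 526 and 585 CPM in injured libraries, beside 539 to 565 CPM in control libraries. Tpp1 stood at 392, 394, 412 and 344 CPM in TLR3-KO injured and 343, 368, 306 and 298 CPM in TLR3-KO control libraries. In WT the values of Tpp1 were 298, 339, 346 and 397 CPM in injured and 370, 374, 331 and 363 CPM in control libraries. Erythroid markers overlapped between the states in TLR3-KO (73.8 to 199.5 CPM in injured, 41.4 to 495 CPM in control libraries) but not in WT, as given above, and their part was not tested.

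Taken as a sum, the 31 genes held a similar share of each library. The share was 3.95% ± 0.15 in TLR3-KO injured, 3.93% ± 0.22 in TLR3-KO control, 3.70% ± 0.30 in WT injured and 3.99% ± 0.24 in WT control libraries (SD, n = 4 each), and the ranges overlapped in all 4 comparisons. The mean log2 CPM of the members, in which each gene counts equally, was 8.62 ± 0.06, 8.60 ± 0.13, 8.54 ± 0.10 and 8.67 ± 0.07 in the same 4 groups with TMM scaling. By raw library totals it was 8.68 ± 0.04, 8.59 ± 0.05, 8.57 ± 0.08 and 8.58 ± 0.03. The order of the groups thus changed with the scaling, and the ranges overlapped in each comparison with either.

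**Figure D4:**
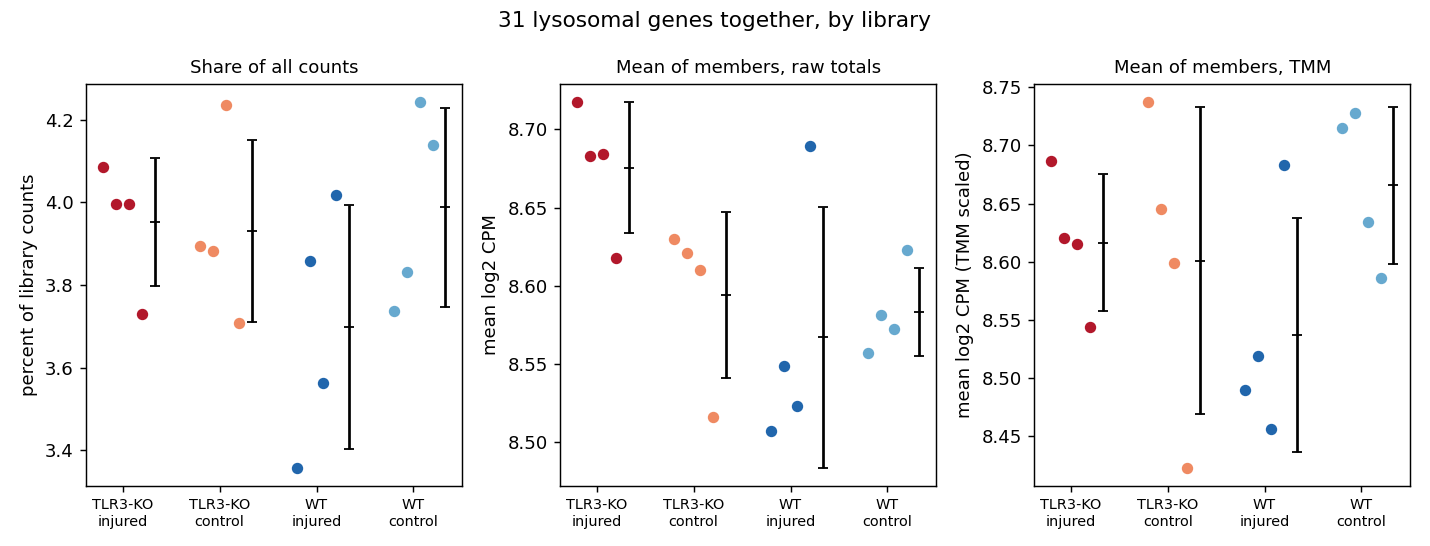
The 31 genes together in each library, as a percentage of all counts (left), as the mean log2 CPM by raw library totals (middle) and as the same mean with TMM scaling (right), with the mean and SD of 4 libraries beside the points. The vertical axes do not start at 0, and the groups overlap in every panel, with shares between 3.36% and 4.24%.

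Control libraries of both genotypes differed by replicate number in several members. In TLR3-KO, Tfeb, the transcription factor, stood at 236 and 229 CPM in controls 1 and 2 but at 97.4 and 128 CPM in controls 3 and 4. In WT, it stood at 214 and 200 CPM in controls 1 and 2, and at 107 and 117 CPM in controls 3 and 4. The injured libraries gave 203, 217, 200 and 194 CPM in TLR3-KO and 186, 124, 139 and 205 CPM in WT. The spread of Tfeb within the control groups was thus larger than any difference between group means, and no comparison of Tfeb passed in the fit of all 16 libraries (log2 fold change, injured over control, 0.15 in TLR3-KO and -0.10 in WT, SE 0.31 each, adjusted p = 0.771 and 0.926, edgeR, with the WT difference at 0.07 by raw totals).

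Controls 1 and 2 both lay above controls 3 and 4 in both genotypes for 8 members (Tfeb, Psap, Grn, Gaa, Man2b1, Ppt1, Ctsl and Tpp1), 25.8% of the members, beside 15.0% of all genes tested. They both lay below in both genotypes for 5 members (Ctsb, Ctsd, Lgmn, Lipa and Scarb2, the receptor that carries glucocerebrosidase), 16.1%, beside 30.7% of all genes tested. In the order of their numbers, the TLR3-KO controls gave 157, 164, 109 and 105 CPM for Gaa and the WT controls 176, 176, 119 and 168 CPM, so WT control 4 lay close to WT controls 1 and 2. For Psap the TLR3-KO controls gave 4653, 5279, 3752 and 2854 CPM and the WT controls, which differed less, 4342, 4429, 4166 and 4318 CPM. Ctsd lay the other way, with 13648, 13074, 16933 and 14375 CPM for the TLR3-KO controls and 12249, 12893, 15892 and 14900 CPM for the WT controls. The choice of controls moved the calls in the TLR3-KO response: against controls 3 and 4 alone 4 members passed (Lgmn lower, and Tfeb, Gaa and Psap higher), beside 32.1% of all genes tested, and against controls 1 and 2 alone none did, beside 0.654%. The E-box letters described above were present for 2 of the 8 members that were higher in controls 1 and 2 and for 2 of the 4 with a window that were lower there. The median log2 fold change in the response to pneumonia of the 12 members with the letters and of the 15 without was -0.05 and 0.07 in TLR3-KO, and -0.10 and -0.16 in WT.

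**Figure D5:**
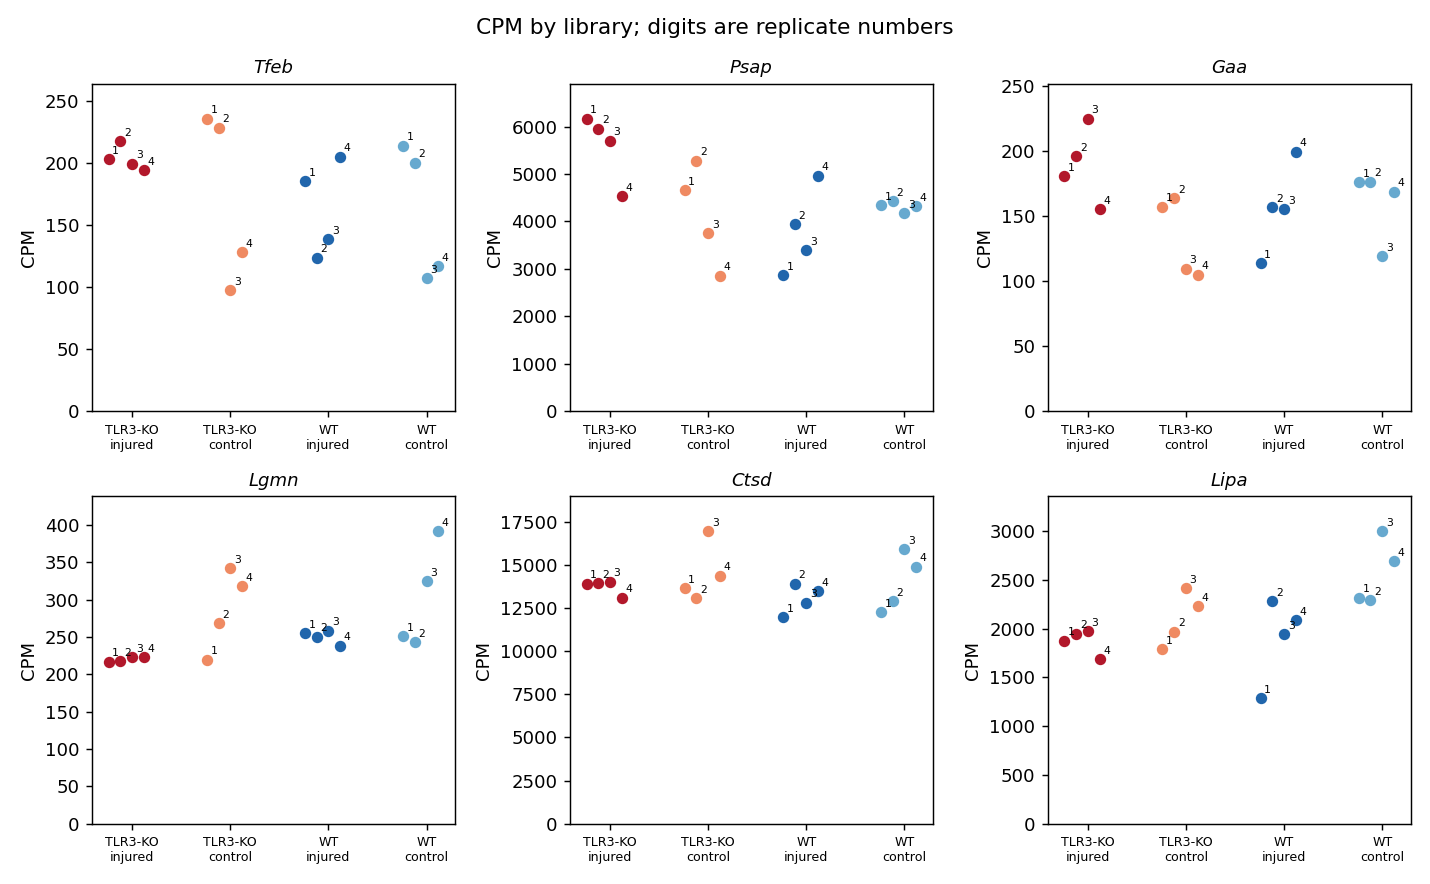
CPM of Tfeb, Psap, Gaa, Lgmn, Ctsd and Lipa in each library by group, with the replicate number beside each point. For Tfeb, controls 1 and 2 lie at 200 to 236 CPM and controls 3 and 4 at 97.4 to 128 CPM in both genotypes, whereas Ctsd, Lgmn and Lipa have controls 3 and 4 above controls 1 and 2.

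Further genes of the pathway were taken from 6 lists: other hydrolases, other membrane proteins and transporters, subunits of the proton pump (V-ATPase), sorting of hydrolases, MiT factors with mTORC1 and Rag regulators, and protease inhibitors. Of 104 genes listed, 101 were in the table and 97 passed the filter. In the TLR3-KO response 0 were higher and 1 lower, Tfec, beside the 1.09% above. Tfec, a macrophage member of the MiT family, stood at 58.6, 53.0, 57.8 and 57.4 CPM in TLR3-KO injured libraries, against 65.0, 69.1, 96.9 and 109 CPM in TLR3-KO control libraries. The ranges did not overlap (log2 fold change -0.64, SE 0.14, adjusted p = 0.0425, edgeR). The call was lost without TLR3-KO control 3 or 4 or any 1 of the 4 TLR3-KO injured libraries (adjusted p from 0.0728 to 0.128), and held in 7 of 19 alternatives. Between control genotypes 0 were higher and 2 lower, beside 0.658% of all genes tested called in either direction. They were Hgsnat and Clcn7, a chloride and proton exchanger of the lysosomal membrane. Clcn7, named after its values were seen, stood at 145, 180, 135 and 153 CPM in TLR3-KO control libraries, against 292, 276, 184 and 246 CPM in WT control libraries (adjusted p = 0.0476, log2 fold change -0.79, SE 0.17, edgeR). That call was lost in the fit blocked on the replicate number (adjusted p = 0.0638) and without WT control 1, 2 or 4 or TLR3-KO control 1, 3 or 4 (0.0655 to 0.161). Between injured genotypes 0 were higher and 2 lower, Hgsnat and Aga, beside 0.602% of all genes tested. In the WT response and in the difference of responses edgeR called none of the 97, and 12 and 22 passed at an unadjusted p under 0.05, beside 10.7% and 17.7% of all genes tested. In the WT response 0 of them were higher and 12 lower, beside 4.44% of all genes tested lower. In the difference of responses 10 were higher and 12 lower, beside 1068 and 1141 of all 12455 genes tested.

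The proton pump subunits, which acidify the lysosome, had 14 of 18 negative log2 fold changes, injured over control, in TLR3-KO (median -0.13, 13 negative by raw totals), beside 51.5% of all genes tested (42.6% by raw totals). In WT 14 of 18 were negative (median -0.16, 11 by raw totals), beside 48.7% (28.8% by raw totals), and none was called in either genotype. TLR3-KO over WT, 14 of 18 were negative in injured libraries (median -0.21, 12 by raw totals), beside 51.4% (45.8% by raw totals), and 12 of 18 in controls (median -0.11, 9 by raw totals), beside 45.3% (37.5% by raw totals), again with none called. At an unadjusted p under 0.05, 7 pump genes were lower in the TLR3-KO response, beside 11.9% of all genes tested, and 6 in the WT response, beside 4.44%. Lower in TLR3-KO were 9 between injured genotypes, beside 7.8%, and 6 between controls, beside 10.2%, and none was higher in any of the 4 comparisons. Of the 11 genes that sort hydrolases, 3 had negative log2 fold changes in the TLR3-KO response (2 by raw totals) and 9 in the WT response (5 by raw totals), against the same shares of all genes as for the pump. Of the 29 further hydrolases, 13 were negative in the TLR3-KO response and 19 in the WT response (11 and 10 by raw totals). Of the 19 further membrane proteins, 10 and 11 were negative (9 in each by raw totals). Of the protease inhibitors 3 of 7 passed the filter, and their median log2 fold change, injured over control, was -0.62 in TLR3-KO and 0.01 in WT (-0.55 and 0.14 by raw totals), with none called.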

How the data were processed

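TruSeq mRNA libraries of macrophage RNA (RNeasy Mini kit) were read as pairs of 50 bases, per the labels' protocols. The submitters' processing notes name the build mm10 and the tools FastQC 0.11.3, TopHat2 2.0.13, Bowtie2 2.2.1, Cufflinks and Cuffdiff 2.1.1. The authors deposited raw counts (whole numbers, not normalized) under gene symbols, and the name of the table credits HTSeq, whose version, strand setting and annotation no source used here gave.

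All 16 libraries were grouped by their titles. Genes were filtered with filterByExpr at a minimum count of 10, scaled by TMM and fitted with edgeR 4.0.16 (R 4.3.3) with robust quasi-likelihood shrinkage and 1 coefficient per group. The Benjamini-Hochberg adjustment ran over 12455 genes, with a threshold of 0.05. CPM in the text use raw totals, and fold changes come from the fit. The SE is the log2 fold change divided by the square root of F. Positions and exon lengths came from GENCODE M21 basic (mm10), promoters from RefSeq (GRCm38.p6). For each comparison the called members, or the 3 with the lowest p, were named, with Lipa, Asah1, Tfeb and the highest member of each role. The members and lists were chosen with earlier results of these data known.

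Titles number the replicates. Departures from group means correlated at 0.48 to 0.60 between same-numbered control libraries of the 2 genotypes, every pair over 0.1, so the numbers pair these libraries. Alternatives were RLE factors, DESeq2 1.42.0, limma 3.58.1 voom, other filters, fits of 2 groups, the block, each library left out, subsets of controls and, chosen after seeing the data, shrinkage that is not robust. The fit was tested on simulated data with known changes. Over the 4 comparisons it recovered 14.9% to 23.9% of 1.5-fold changes and 59.7% to 67.2% of 2-fold changes. Small differences could thus be missed. Tables and figures used python 3.11.15.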

Additional observations from a re-analysis of the deposited data

Results flagged for a closer look

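Single libraries stood apart from the other 3 of their group for 5 values. Of 132 groups of 4 examined with Dixon's ratio (critical value 0.829), chance gives about 1 in 20, or 5%, so these 5 are fewer than chance alone would give. Ctsd was counted at 13104 CPM (13104.5) in TLR3-KO injured 4, against 13900 to 14021 CPM in the other 3 libraries. TLR3-KO control 3 stood high for Ctsh, at 583 CPM against 404 to 423 CPM, and for Hexa, at 681 CPM against 585 to 599 CPM. Gaa was counted at 119 CPM in WT control 3, against 169 to 176 CPM in the other 3. Man2b1 was counted at 619 CPM in WT injured 4, against 403 to 419 CPM in the other 3. By raw library totals, TLR3-KO control 3 was also the library with the highest value of all 16 for 6 members, and WT injured 1 and WT control 1 were the lowest for 6 each. The place of WT control 1 depended on the scaling. Its mean log2 CPM of the members was 8.56 by raw totals (group mean 8.58) and 8.71 with TMM (group mean 8.67).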

How the results depend on the processing

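Of 577 values recomputed under the alternatives, none changed direction while called, and 510 kept their side of the threshold or stayed within the spread. For most exceptions the cause was not tested. Members called by DESeq2 were 2 in the WT response (Lipa and Ctsb), 1 in the TLR3-KO response (Lgmn), 3 between control genotypes (Asah1, Lamp2 and Ctsb) and 1 between injured genotypes (Asah1). With fits of 2 groups, which use fewer libraries, 0 were called between controls and 1 between injured genotypes (Asah1). With the replicate block 0 were called between controls, and the block changed no other count of members called. In the other comparisons the numbers did not pair the libraries: same-numbered correlations were -0.07 to 0.34 in the TLR3-KO response, where 6 of 8 libraries correlated best with their own number, -0.29 to -0.12 in the WT response and -0.34 to 0.08 between injured genotypes, where 0 of 8 did. There the block ended 2 calls of genes outside the 31, Tfec (adjusted p = 0.0713) and Aga (0.0621).

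With controls 1 and 2 only, 1 member (Ctsz) was called in the WT response, beside 1631 of all 12689 genes tested. The median of the TLR3-KO response was then -0.13. With controls 3 and 4 only, 1 (Lgmn) was called in the WT response, beside 63 of all 12783 genes tested. In the TLR3-KO response 4 were called, beside 4108 of 12783, and between control genotypes 0, beside 20 of 12783. With TLR3-KO control 4 as the only TLR3-KO control, the medians were 0.13 in the TLR3-KO response, -0.27 between control genotypes and 0.34 for the difference of responses. There the lone library is assumed to vary like the other groups. Leaving out each library, members called ranged from 0 to 1 in the TLR3-KO response and from 0 to 2 between control genotypes, and the median of the WT response from -0.22 (without WT injured 4) to -0.0752 (without WT injured 3). Raw library totals moved the median of all genes by 0.13 in the WT response and 0.10 between control genotypes. The biological coefficient of variation was 0.238, and Sgsh rests on 3 to 28 reads per library.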
